A study of Homo sapiens with 4 samples.

Results

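The 10 human Frizzled genes, FZD1 to FZD10, were examined for regions of N6-methyladenosine (m6A), a methylated adenosine of RNA, in H1, a long-established human embryonic stem cell line. A deposited region was taken for a Frizzled gene when its annotated transcript belonged to the gene, when the gene was named as the nearest start site, or when the region met the gene body on hg38. This rule took 23 of the 9900 deposited regions, 10 of which lay over a Frizzled gene body and 13 of which did not. The libraries came from total RNA of cells labelled wild type and carrying no treatment other than the m6A-seq procedure, with 2 input libraries and 2 libraries of RNA recovered with an m6A antibody from Cell Signaling Technology. The series concerns the m6A reader IGF2BP1 and OTX2 mRNA in the choice of germ cell fate, and m6A was profiled here in the undifferentiated cells. Each region is a position from 1 intersected peak set without height or score, so there was no value per library, no replicate error and no test between groups. RNA levels were not analysed here, so cell identity could not be checked against marker genes, and the absence of a region does not show that m6A was absent.

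Frizzled proteins are the cell-surface receptors of WNT ligands. They span the membrane 7 times and bind the ligand through a cysteine-rich domain outside the cell, and they pass the signal inward through Dishevelled, either with the co-receptors LRP5 and LRP6 to stabilise beta-catenin or along routes that set planar cell polarity. In human embryonic stem cells WNT signalling is known both for a part in self-renewal and for driving differentiation to mesendoderm. In mRNA, m6A is bound by reader proteins that act on the stability and translation of the transcript.

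The sequences shown first belong to FZD8, because the annotation tied both of its regions to a microRNA. FZD8 held 2 regions, on either side of the MIR4683 hairpin (chr10:35641172-35641252, 81 bases), which lies inside the FZD8 gene on the same, minus strand. The upper region was labelled as the promoter of MIR4683 and the lower one had MIR4683 as its nearest start site. The sequences are from RefSeq (GRCh38.p14) and are written 5′ to 3′. Capitals mark the mature microRNA in the hairpin, the seed (bases 2 to 8) in the mature form, and, in the last line, the 4 bases of the FZD8 transcript start (chr10:35642247-35642276, minus strand) that fall inside the deposited region.
MIR4683 hairpin: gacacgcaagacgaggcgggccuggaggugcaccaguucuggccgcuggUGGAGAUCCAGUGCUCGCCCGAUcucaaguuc
hsa-miR-4683: uGGAGAUCcagugcucgcccgau
FZD8, 20 to 49 bp past the gene start: gaagttgggctaagggcgctgctcccGCCG
The hairpin itself lay in the gap of 1009 bp between both regions, 83 bp from the upper and 845 bp from the lower one. No deposited region covered the microRNA.

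Exonic m6A regions were found in 7 of the 10 Frizzled genes: FZD2, FZD4, FZD5, FZD6, FZD7, FZD8 and FZD9. A region counted as exonic when its centre was annotated to a coding, UTR or non-coding exon of the gene. The share was 70% (95% exact binomial interval 34.8 to 93.3%, for counting error only), where 12.8% of all 20056 protein-coding genes held an exonic region. The 10 genes are the whole family, not a random sample, and were chosen with earlier results of these data known. The interval is therefore no test against the share of all genes. FZD3 held 2 regions in introns, which made 8 of 10 Frizzled genes with a region over the gene body, beside 30.2% of protein-coding genes. FZD1 and FZD10 held none. With coding and UTR exons only, which left out FZD6, the count was 6 of 10 beside 12.1% of protein-coding genes, and with exonic regions up to 2000 bp, which left out FZD7, it was 6 of 10 beside 10.4%. These background shares count every gene whatever its RNA level, and no test over genes was made. The 8 Frizzled genes with short bodies, all but FZD3 and FZD6, span 2343 to 9717 bp. Of the 4055 protein-coding genes in that length range 9.72% held an exonic region, and 18.0% a region anywhere over the gene body, and 6 of these 8 Frizzled genes held an exonic one.

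**Figure D1:**
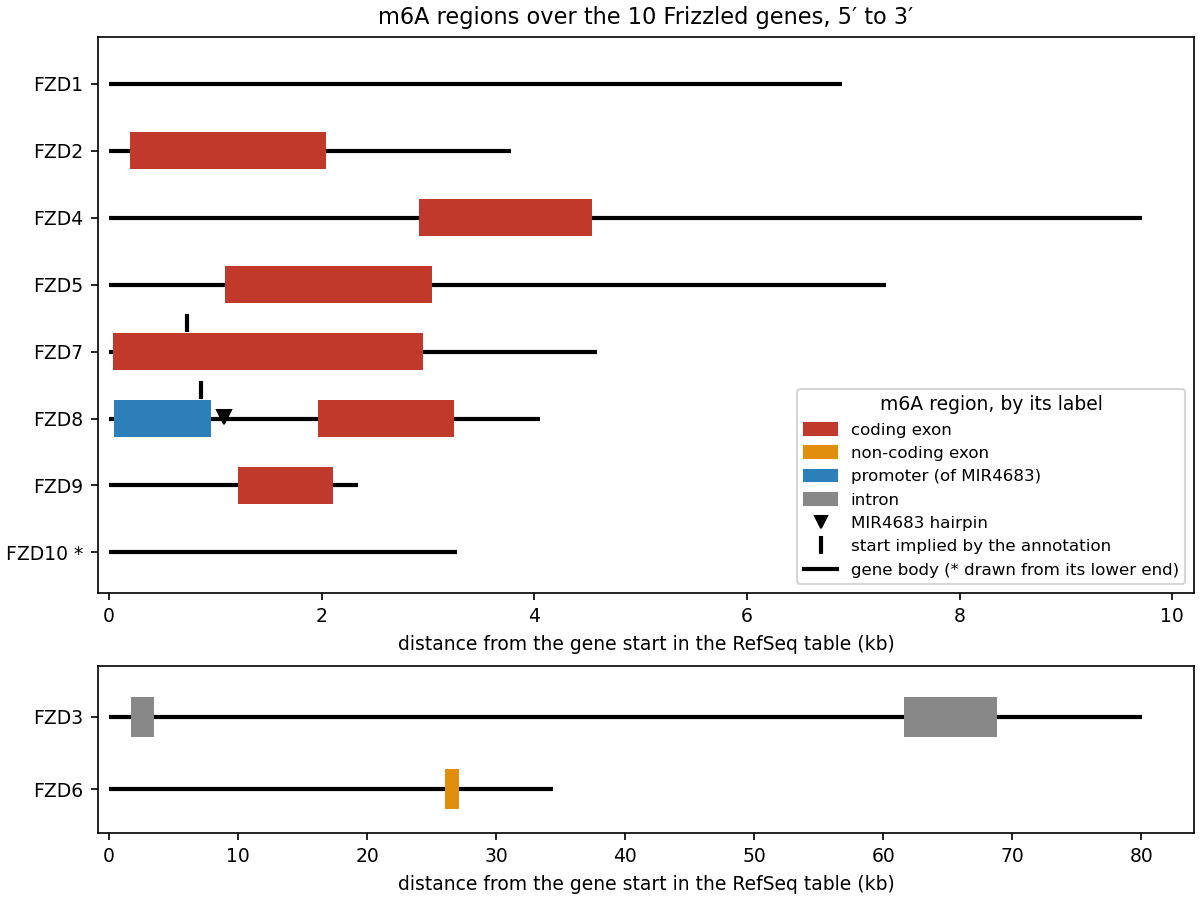
Each black line is a Frizzled gene body drawn from its start in the RefSeq gene table (x axis, kb), and each box is a deposited m6A region coloured by the feature annotated at its centre. FZD1 and FZD10 are empty, FZD3 holds intronic regions alone, and the other 7 genes each hold an exonic region; FZD10 is drawn from its lower-coordinate end because its strand was not taken from the tables used.

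All 10 regions over Frizzled genes lay wholly inside the gene body. By the annotation, the region was centred in a coding exon in 6 genes, and in FZD6 in an exon of a non-coding transcript. Whether that position is also an exon of a coding FZD6 transcript was not examined. Coding-exon regions sat in exon 1 of 1 in FZD2, FZD7, FZD8 and FZD9 and in exon 2 of 2 in FZD4 and FZD5. The exon was the last one of its transcript in all 6 genes. In FZD2, FZD7, FZD8 and FZD9, labelled with 1 exon, it could not be otherwise. The share of all coding-exon regions that sit in a last exon was not computed.

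FZD7, a receptor known for its part in maintaining undifferentiated human embryonic stem cells, had the widest exonic region of the family. The gene (NCBI Gene 8324) lies at chr2:202033855-202038441, and its region ran over chr2:202033891-202036805, 2915 bp or 63.5% of the gene. The region began 36 bp past the gene start and stopped 1636 bp before the gene end. It was wider than most regions of its kind, at the 92.9th percentile of the 1913 coding-exon regions, whose median was 1350 bp. The start site that the annotation implied for FZD7 lay 732 bp inside the gene of the RefSeq table, so the region begins upstream of that start and just downstream of the other.

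FZD2 belongs with FZD1 and FZD7 to a subgroup of closely related receptors and is known for signalling by WNT5A. FZD2 (NCBI Gene 2535, chr17:44557484-44561262) held 1 region of 1844 bp at chr17:44557684-44559527, from 200 to 2043 bp past the gene start. The region covered 48.8% of the gene and, as in FZD7, left the 3′ part free, here the last 1735 bp. FZD1 (NCBI Gene 8321, chr7:91264433-91271326), the third receptor of the subgroup, had no region over its 6894 bp, and the nearest one outside was 87859 bp away. The sources used here do not state how reads that match several related genes were assigned.

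FZD5 and FZD8 form another pair of close relatives, known in eye development and as receptors of canonical WNT ligands. FZD5 (NCBI Gene 7855, chr2:207762598-207769906, minus strand) held 1 region of 1953 bp at chr2:207766865-207768817. It ran from 1089 to 3041 bp past the gene start and left the last 4267 bp of the gene free. FZD8 (NCBI Gene 8325, chr10:35638247-35642296, minus strand) held its coding-exon region of 1272 bp at chr10:35639055-35640326, from 1970 to 3241 bp past the start, and its upper region of 915 bp at chr10:35641336-35642250, from 46 to 960 bp past the start. FZD8 was the only one of the 4 genes labelled as 1 exon with its coverage split in this way. Together its regions took 54% of the gene. The annotation placed the FZD8 start 862 bp inside the RefSeq gene, so that the upper region was listed at a distance of -359 bp, upstream of it. A protein-coding gene of the same table and strand, LOC124902528 (chr10:35641728-35642846), shares 523 bp with the upper region, and the positions alone cannot tell to which transcript that region belongs.

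FZD4 and FZD9 each held 1 coding-exon region. FZD4, the receptor of Norrin in retinal vessel growth, held 1 region (NCBI Gene 8322, chr11:86945679-86955395, minus strand). It spanned 1632 bp at chr11:86950849-86952480, from 2915 to 4546 bp past the start, and left the last 5170 bp free. The whole region also lay inside PRSS23, a serine protease gene on the opposite strand (chr11:86791071-86952910) that shares 7232 bp with FZD4. Because the file gives 1 strand to all regions, the 2 genes cannot be told apart there. FZD9 (NCBI Gene 8326, chr7:73433778-73436120), a gene of the Williams syndrome region, held the narrowest of the 10 regions, 890 bp at chr7:73434992-73435881. In FZD9 the region lay toward the 3′ end, from 1214 to 2103 bp past the start and 239 bp from the gene end. FZD10 (NCBI Gene 11211, chr12:130162464-130165740), which shares a subgroup with FZD4 and FZD9, was the most isolated member: the nearest region of any kind was 656358 bp away.

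FZD3 and FZD6, known for planar cell polarity and, in the case of FZD3, for axon guidance, have the longest gene bodies. FZD6 (NCBI Gene 8323, chr8:103298494-103332866) held 1 region of 1115 bp at chr8:103324531-103325645, centred in exon 4 of 6 of a non-coding FZD6 transcript, 26037 to 27151 bp past the gene start. The nearest start site was that of SNORD173, a small nucleolar RNA gene inside FZD6, so FZD6 was not named on that line. FZD3 (NCBI Gene 7976, chr8:28494212-28574258) held a region of 1765 bp in intron 1 of 6, from 1716 to 3480 bp past the start. Its other region was 7239 bp wide, at chr8:28555778-28563016 in intron 7 of 7, with its centre in an L2 repeat and MIR4288 as its nearest start site. This was the only one of the 10 regions with its centre annotated to a repeat, and both FZD3 regions were of ordinary size for introns, at the 42.9th and 80.1st percentiles of 4967 intronic regions. FZD3 and FZD8 were the 2 members with more than 1 region over the gene body, as had 9.09% of protein-coding genes.

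**Figure D2:**
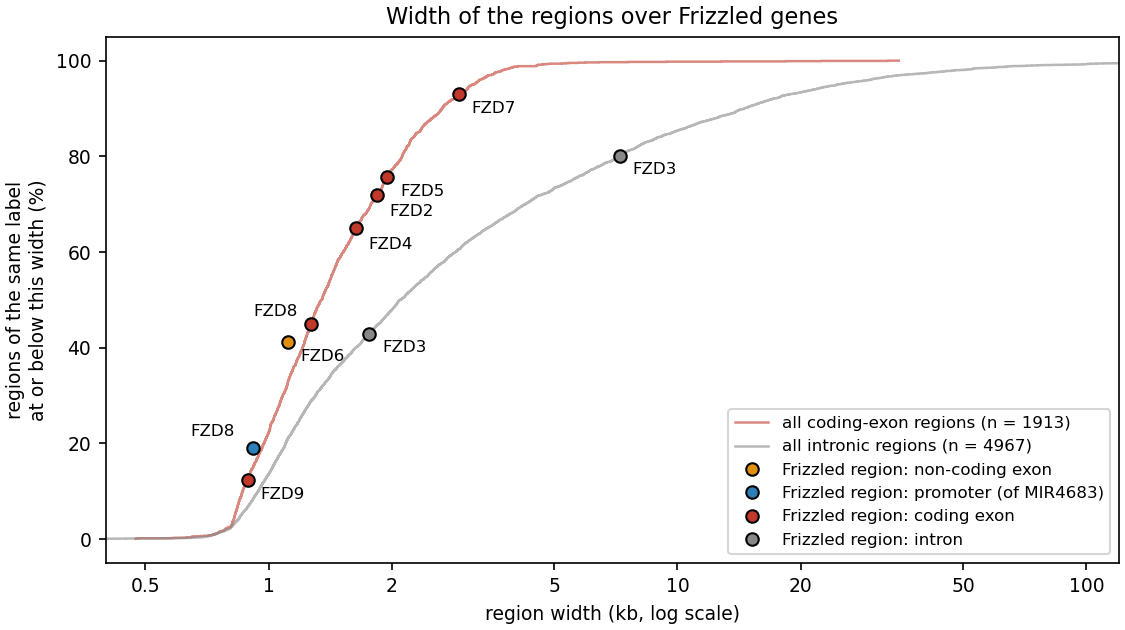
Points are the 10 regions over Frizzled genes, by width (x axis, kb, log scale) and by the percentage of deposited regions of the same label that are no wider (y axis); lines are the distributions of all 1913 coding-exon and all 4967 intronic regions. FZD9 lies near the bottom at 890 bp and FZD7 near the top of the coding-exon curve at 2915 bp, and the widest point is the second FZD3 intron at 7239 bp.

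Among the coding-exon regions the order of widths was FZD7 (2915 bp), FZD5 (1953 bp), FZD2 (1844 bp), FZD4 (1632 bp), FZD8 (1272 bp) and FZD9 (890 bp). Their median was 1738 bp, beside 1350 bp for all coding-exon regions (quartiles 1029 and 1936 bp). FZD4, FZD2 and FZD5 fell at the 65.0th, 72.0th and 75.6th percentiles of that distribution and FZD8 and FZD9 at the 44.9th and 12.3rd, so the 6 genes ranged from narrow to wide. As peak height was not given, width says how far a region reaches and not how strongly the RNA was enriched.

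By the share of the gene body covered, the order was FZD7 (63.5%), FZD8 (54%), FZD2 (48.8%), FZD9 (38.0%), FZD5 (26.7%), FZD4 (16.8%), FZD3 (11.2%) and FZD6 (3.24%). The 729 protein-coding genes in the length range of the short members that met a region had a median of 29.8% covered. FZD7, FZD8, FZD2 and FZD9 were above that median and FZD5 and FZD4 below it. The value of FZD8 takes in its upper region, which was labelled as the promoter of MIR4683. The coding-exon region of FZD8 alone covered 31.4% of the gene, less than in FZD2 and FZD9 and just above that median. The centres of the 7 exonic regions lay at a median of 38.4% of the way from gene start to gene end. In FZD5, FZD2, FZD7 and FZD4 they lay in the earlier part of the gene, at 28.3, 29.7, 32.6 and 38.4%. In FZD8, FZD9 and FZD6 they lay later, at 64.4, 70.8 and 77.4%. Without transcript models these are positions along the gene body with introns included, and the coding bounds were not used.

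Coding genes of 1 exon give the nearest comparison for FZD2, FZD7, FZD8 and FZD9. Of the deposited regions, 149 were centred in exon 1 of 1 of a protein-coding host, in 148 genes, and were 1620 bp wide at the median, with quartiles of 1165 and 2252 bp. FZD7 lay above the upper quartile, FZD9 below the lower one, and FZD2 and FZD8 between them. For the 136 of these regions whose nearest start was that of the same transcript, the centre lay a median of 1096.5 bp from it (quartiles 801 and 1466 bp). By the same deposited distance FZD2 was at 1121 bp, FZD7 at 761 bp and FZD9 at 1658 bp. FZD2 was thus close to the median, FZD7 just below the lower quartile and FZD9 above the upper one. The place of FZD7 depends on the start used, as its centre lay 1493 bp from the RefSeq gene start, above the upper quartile. Next, 141 other genes with 1 exonic region, centred in exon 1 of 1, were ranked by the width of the region as a share of the gene. Position along the gene was not used. The rank was by closeness to the median of the 7 Frizzled genes, 31.4%, which is the value of the FZD8 coding-exon region alone. The nearest were MOCS3 (31.3%), KBTBD7 (31.6%), TSPYL1 (32.3%), GALNT4 (32.3%) and GJD3 (30.3%), with regions of 1239 to 1739 bp. The median of 31.4% takes in FZD4, FZD5 and FZD6, which have more than 1 exon. The 4 Frizzled genes of 1 exon alone had a median of 43.4%, close to the 42.6% of the 141 genes, so the 5 named genes are near the family's median and not near that of its 1-exon members.

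The remaining 13 regions carried a Frizzled name only because its start site was the nearest. They lay from 6098 to 228545 bp outside the gene, 6 of them between genes, 6 in introns and 1 in a coding exon of other genes. All 6 regions named for FZD1 were centred in L1 retrotransposon repeats, 2 in introns of CDK14 upstream and 4 between genes downstream. The 3 such regions of FZD9 lay in the neighbouring chromatin gene BAZ1B, in introns 17 and 7 of 18 and in exon 7 of 20. The other 4 were 1 in an intron of PRSS23 beside FZD4, 2 between genes upstream of FZD7, and 1 of 21864 bp in an intron of LOC105369147 upstream of FZD6. Naming by the nearest start site thus added FZD1, which had no region over its gene, and dropped the lines of FZD3, FZD6 and FZD8 that went to MIR4288, SNORD173 and MIR4683. By that naming 9 of 10 Frizzled genes were listed, where 26.2% of protein-coding genes were.

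**Figure D3:**
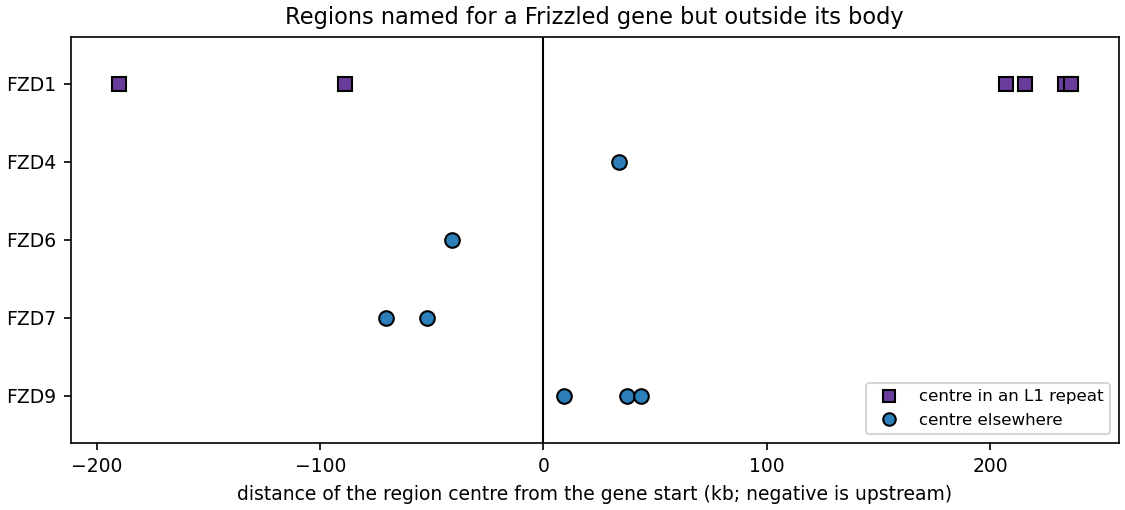
Each symbol is 1 of the 13 regions named for a Frizzled gene by the nearest start site but outside its body, placed by the distance of its centre from the gene start (x axis, kb, negative upstream). Squares, centred in L1 repeats, are the 6 regions of FZD1; the circles of FZD4, FZD6, FZD7 and FZD9 are centred elsewhere.

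The other genes of the pathway were counted by role, beside the 12.8% of protein-coding genes. Of 19 WNT ligands only WNT5B held an exonic region, of 1099 bp in its 3′ UTR, while WNT1 and WNT10A held none. Neither gene of ligand secretion, PORCN or WLS, held one. Of 6 co-receptors and other WNT receptors, ROR1 and ROR2, receptor tyrosine kinases for WNT5A, held 1 each in exon 9 of 9 (1908 and 1223 bp), and LRP5 and LRP6 had none. None of 4 partners of FZD4, ADGRA2 and the ligand NDP among them, held one. Most Frizzled genes held a region where few genes for their ligands did. This difference was not tested, and the RNA levels of either set were not analysed.

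**Figure D4:**
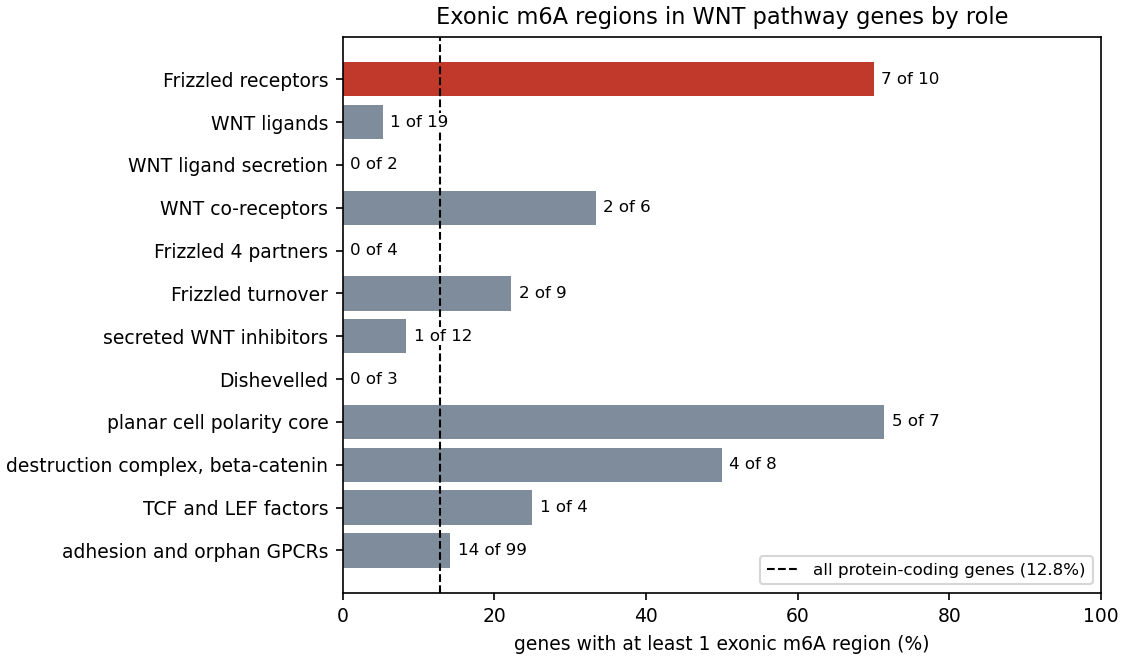
Bars give the percentage of genes of each role with at least 1 exonic m6A region, leaving out SMO, a list of 1 gene, with the counts beside them, and the dashed line is the 12.8% of all protein-coding genes. Frizzled receptors (7 of 10) and the planar cell polarity core (5 of 7) have the longest bars drawn, and ligand secretion, Frizzled 4 partners and Dishevelled have no gene with an exonic region.

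Frizzled receptors are removed from the cell surface by the ubiquitin ligases ZNRF3 and RNF43, which R-spondins and LGR receptors hold in check. Of 9 such genes, ZNRF3 held an exonic region of 2739 bp in exon 8 of 9 and LGR4 one of 908 bp in exon 17 of 17, and LGR5 and LGR6 held none. Of 12 secreted inhibitors, SFRP1, which carries a Frizzled-like cysteine-rich domain, held 1 in exon 3 of 3 (1010 bp), and CER1 and DKK1 had none. Of the 3 Dishevelled genes, the direct partners of Frizzled inside the cell, none held an exonic region, DVL1 and DVL2 included.

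In the planar cell polarity core, which works with FZD3 and FZD6, 5 of 7 genes held an exonic region. The atypical cadherins CELSR1 and CELSR2 held 2 each, in the first exon and in the 3′ UTR, CELSR3 held 1 of 3268 bp in its first exon, and PRICKLE2 and VANGL1 held 1 each, whereas PRICKLE1 and VANGL2 had none. Of 8 genes of the destruction complex with beta-catenin, APC, APC2, AXIN1 and AXIN2 held exonic regions and CSNK1A1 and CTNNB1 did not. Of 4 TCF and LEF factors, TCF7 held 1 in exon 10 of 10, and LEF1 and TCF7L1 none. SMO, the Hedgehog pathway receptor and the only other class F receptor, held a region of 981 bp in exon 12 of 12. Over all 74 listed WNT genes other than Frizzled, 16 held an exonic region (21.6%, beside 12.8% of protein-coding genes). Counting any overlap with the gene body, 24 did (32.4%, beside 30.2%), and by the nearest start site 15 did (20.3%, beside 26.2%). The pooled share thus stood above that of all protein-coding genes by exonic regions, near it by overlap and below it by the nearest start site. The listed genes were not set beside genes of like length. Of the 16 genes, 5 came from the planar cell polarity core and 4 from the destruction complex list. The excess was therefore not spread evenly over the roles, and it was not tested.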

How the data were processed

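Per the labels, m6A-seq was made from wild-type H1 cells, with 2 input and 2 antibody libraries, grouped by their titles. The submitters' processing notes name hg38 and, without roles or settings, HOMER, MACS2 2.2.7.1, HISAT2 2.2.1, bedtools 2.30.0, Trim Galore 0.6.7 and SAMtools 1.6. The authors deposited 1 set of 9900 region positions and its HOMER annotation, per the file headers. The deposited score was 0 throughout and was not used. Depth is unknown.

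Host genes were matched by annotated transcript, and nearest start sites by NCBI Gene ID, to the RefSeq gene table of GRCh38.p14. Overlap needed 1 bp. Gene strand came from RefSeq promoter entries (5 of 10 members matched) or, otherwise, from the start sites that the deposited distances imply, to within 2 bp, which left FZD10 without one. Intervals are 95% exact (Clopper-Pearson), by SciPy 1.17.1 in Python 3.11.15. Overlap counting was tested on simulated data.

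The members and lists were chosen with earlier results of these data known. All members are named. Of each role list, up to 5 genes with an exonic region and 2 without are named, most regions first, then most bases or alphabetical. Alternatives covered width, feature, naming, merging and overlap. The m6A motif and stop codon distance were not analysed here.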

Additional observations from a re-analysis of the deposited data

How the results depend on the processing

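The count of 7 Frizzled genes with an exonic region (beside 12.8% of protein-coding genes) was 6 or 7 under each alternative except naming by the nearest start site. Such naming does not count exonic regions and gave 9 (beside 26.2%). The count was 6 with regions up to 2000 bp (FZD7 left out, beside 10.4%) and with regions of at least 1000 bp (FZD9 left out, beside 9.93%). It was also 6 with coding and UTR exons only (FZD6 left out, beside 12.1%) and without regions that meet another protein-coding gene (FZD4 left out). The last 2 were chosen after seeing the data, and for the last no share of all genes was computed. The count of 8 with a region over the gene body (beside 30.2%) was 7 with regions up to 2000 bp (beside 20.8%). It was 8 under the other alternatives (beside 28.5 to 31.4%). The median position of 38.4% along the gene was 64.3% for region ends and moved by less than 1 SD between the 7 regions for region starts. The 16 other WNT genes became 24 by overlap (32.4%, beside 30.2% of all protein-coding genes). They became 13 with regions up to 2000 bp (17.6%, beside 10.4%) and 15 by the nearest start site (20.3%, beside 26.2%). Only the pooled counts of exonic regions were well above those of all genes. This was not tested, and genes of like length were not compared. Of the 16, 5 were planar cell polarity core genes and 4 were destruction complex genes. By overlap, ligands went from 1 to 2, FZD4 partners from 0 to 1, secreted inhibitors from 1 to 2, Dishevelled from 0 to 1, TCF and LEF factors from 1 to 2 and the adhesion and orphan receptors from 14 to 23 (23.2%, below the 30.2% of all genes). By the nearest start site, co-receptors went from 2 to 1, turnover genes from 2 to 0, destruction complex genes from 4 to 2, SMO from 1 to 0, FZD4 partners and Dishevelled from 0 to 1, inhibitors and TCF and LEF factors from 1 to 2, and the adhesion and orphan receptors from 14 to 22 (22.2%, below 26.2%). By overlap, co-receptors went from 2 to 3, planar cell polarity core genes from 5 to 6 and destruction complex genes from 4 to 5. With regions up to 2000 bp, turnover genes were 1 and planar cell polarity core genes went from 5 to 4. By that width limit, destruction complex genes went from 4 to 3 and the adhesion and orphan receptors from 14 to 12 (12.1%, beside 10.4%). No paired analysis was possible because the deposited regions carry no value per library.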

Other observations

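Genes with symbols of adhesion and orphan G protein-coupled receptors were counted in the same way. Of 99 such genes, taken by the symbols ADGR and GPR alone, 14 held an exonic region (14.1%), beside 12.8% of all protein-coding genes. Whether each is an orphan receptor or crosses the membrane as Frizzled proteins do was not checked. By overlap with the gene body 23 did (23.2%, beside 30.2%). GPR176, GPR37, ADGRF3 and ADGRB1 held 2 each, and GPR107 held 1 of 2480 bp in the 3′ UTR of exon 17 of 17. ADGRA1 held none, nor did ADGRA2, which also stands among the FZD4 partners. The Frizzled genes were not tested against this list.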
